A study of Mus musculus with 6 samples.

Results

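Mature migratory dendritic cells were examined by single-cell RNA sequencing of 6 mouse ovarian tumors. Members were chosen on raw UMIs, which are counts of single RNA molecules. A member had at least 2 UMIs of Ccr7, at least 2 of Fscn1 and at least 1 of H2-Ab1. It had no more than 5 UMIs of the complement genes C1qa, C1qb and C1qc together, and none of Cd3d, Cd3e, Cd3g or Cd79a to limit macrophages, T cells and B cells. Of 51633 cells with at least 250 genes and no more than 5% mitochondrial UMIs, 363 were members. Because these genes chose the members, they are described below and not tested.

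The tumors were grown from KPCA, a mouse ovarian cancer line proficient in homologous recombination, placed into the ovarian bursa of female C57BL/6 mice 6 to 8 weeks old. Each of 6 groups was 1 mouse and 1 library, so no difference between treatments had a replicate check. The control mouse received solvent and rat IgG. The 2DG mouse received the glycosylation and glycolysis inhibitor 2-Deoxy-D-glucose at 500 mg/kg by intraperitoneal injection every 2 days from day 9 after implantation. The 2FF mouse received the fucosylation inhibitor 2F-Peracetyl-Fucose by gavage every 2 days, and its tumor cells had been kept in 300 µM of the same inhibitor for 3 days before implantation. The anti-PD-L1 mouse received the blocking antibody 2 times a week for 3 weeks from day 9. In 2 further groups the antibody was combined with 2DG or with 2FF, and tumors were taken at day 30. All 6 mice carried tumors of the same line, so none shows these cells in a tumor-free animal. The labels name the tissue as lymph node and the series design mentions mice both young and aged, whereas the tumors and the age given here come from the study's methods. Summed over 10 genes of lymph node stroma, the cells outside the members held 146 to 207 CPM, the UMIs of a gene or list scaled to 1e+06 UMIs of the cells in question, and the members held 2.58 to 31.1. Pdpn or Pecam1, which other tissues also express, gave the most UMIs of this list in each library, and the node genes Ccl21a, Glycam1 and Madcam1 were at no more than 0.0331 CPM in the cells outside the members.

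Dendritic cells take up antigen in tissues and present it to T cells. On maturation they switch on the chemokine receptor CCR7, which guides them towards draining lymph nodes, and the actin-bundling protein fascin, encoded by Fscn1. Maturation runs largely through NF-kB transcription factors and brings costimulatory ligands, cytokines, chemokines and, together with these, inhibitory ligands such as PD-L1. Type 1 dendritic cells, which excel at cross-presentation to CD8 T cells, and type 2 dendritic cells, which mainly prime CD4 T cells, can both give rise to mature cells.

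The libraries held 61859753 to 73885214 UMIs. There were 56 members in the control, 74 with 2DG, 68 with 2FF, 77 with anti-PD-L1, 37 with 2DG and anti-PD-L1 and 51 with 2FF and anti-PD-L1, and values of single libraries are listed in that sequence throughout. Their median depth was 10254.5, 10649, 8400, 9514, 9282 and 9094 UMIs per cell, with 2586.5 to 2957.5 genes. A nearest-neighbor doublet search marked 8, 2, 1, 5, 4 and 5 of the members, 25 in all. Libraries shared 320 cell barcodes over their 15 pairs. None of these was a member in both libraries.

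Members made up 0.617% of the control cells, with an exact (Clopper-Pearson) 95% interval of 0.466 to 0.801. The share was 0.961% (0.755 to 1.20) with 2DG, 0.737% (0.573 to 0.934) with 2FF and 0.875% (0.691 to 1.09) with anti-PD-L1. It was 0.410% (0.289 to 0.565) with 2DG and anti-PD-L1, and 0.653% (0.487 to 0.858) with 2FF and anti-PD-L1. The intervals cover counting error alone, and that of 2DG with anti-PD-L1 lay below those of 2DG, 2FF and anti-PD-L1 alone. It overlapped that of 2FF when Ccr7 and Fscn1 were both required at 1 or at 3 UMIs, and those of 2FF and anti-PD-L1 when cells were thinned to 3000 UMIs. The control library also held 3131 cells rich in the neutrophil genes S100a8 and S100a9, against 184 to 344 in the others, and these enter the denominator. Without such cells, the control share was 0.892% and the anti-PD-L1 share 0.885%.

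Type 1 cells were chosen by at least 2 UMIs of Xcr1 and Clec9a together and type 2 cells by at least 2 UMIs of Cd209a, both with no Ccr7 UMI and the same exclusions. There were 84, 112, 60, 75, 32 and 44 type 1 cells and 56, 103, 96, 125, 180 and 125 type 2 cells. Members were 28.6, 25.6, 30.4, 27.8, 14.9 and 23.2% of the cells in the 3 dendritic classes. The lowest share, 14.9% with an exact 95% interval of 10.7 to 19.9, stood beside the largest number of type 2 cells. With 1 mouse per group, spread between animals cannot be told apart from treatment.

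**Figure D1:**
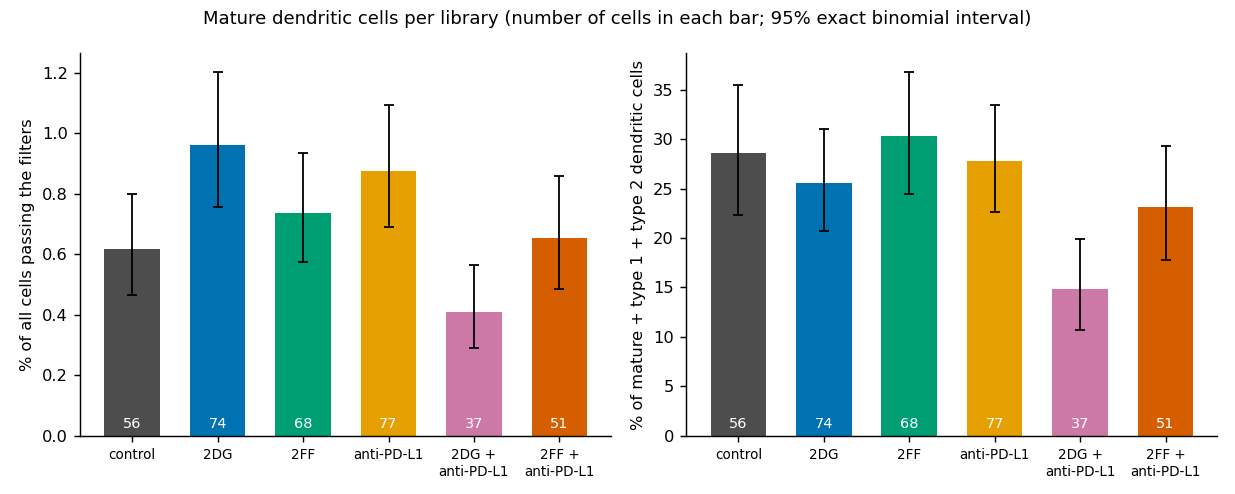
Members as a percentage of all cells passing the filters (left) and of the 3 dendritic classes (right) in the 6 libraries. Bars give 1 library each with its number of members, and lines are exact 95% binomial intervals. The 2DG with anti-PD-L1 library is lowest in both panels, at 0.410% and 14.9%.

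Members had a median of 22 Ccr7 UMIs per cell, with an interquartile range of 13 to 34, 11 Fscn1 UMIs (6 to 20) and 16 H2-Ab1 UMIs (3 to 38). H2-Ab1, the beta chain of the class II molecule I-A, varied most of the 3 between libraries, with medians of 4, 12, 19, 13, 23 and 32. Of the 363 cells, 26 sat at the edge, with exactly 2 UMIs of Ccr7 or Fscn1. In these, Cacnb3, a calcium channel subunit that marks mature dendritic cells, was found in 80.8% of cells. It was found in 46.3% of 41 cells just outside, which had 1 UMI of either gene. It was found in 94.1% of the 337 members further inside, and in 30% of 260 cells with Ccr7 but no Fscn1 UMI. Ccl22, the marker that the choice did not use, was found in 88.5, 73.2, 86.9 and 53.8% of the same 4 sets. Both genes were found in a smaller share of the cells just outside than of those at the edge. By level, Cacnb3 was at 318 CPM just outside and 381 CPM at the edge. Ccl22 went the other way, at 1068 CPM just outside and 461 CPM at the edge. Il4i1 and Ccl17 were also higher by level just outside, and Relb, Cd83 and Tmem123 were lower.

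Ccl22 (ENSMUSG00000031779, GRCm38 chr8:94745590-94751699, plus strand) had a UMI in 85.7, 90.5, 85.3, 88.3, 78.4 and 90.2% of members. In cells of a T cell gate, which should lack it, the share was 0.13 to 0.76% at median depths of 5549 to 7370 UMIs. Lamp3, a marker of mature dendritic cells in human tissue, had 0 UMIs in all 363 members, which allows a share of up to 0.826% of cells with a UMI. It was also near 0 in all other cells, at 0.0663 to 0.205 CPM. Ccl19, the ligand of CCR7, and Cd207, which marks Langerhans cells, had 0 UMIs in members as well. Genes of 10 T cell markers summed to 50, 82.0, 49.2, 101, 54.4 and 110 CPM in members. Thy1 gave the most of these UMIs in each library, at 23.8 to 74.9 CPM. The part of T cell RNA in these values was not tested.

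For tests, UMIs of each class were summed per library and compared over the 6 libraries with edgeR's quasi-likelihood test, with the library as a block and Benjamini-Hochberg adjustment. The p-values measure the spread over 6 differently treated mice. Of 8012 genes tested against type 1 cells, 2355 (29.4%) were higher in members and 2506 (31.3%) lower. Against type 2 cells, 2206 (27.5%) were higher and 2441 (30.5%) lower. Higher in every library were 24.7% of genes against type 1 and 22.9% against type 2 cells, and lower in every library 26.4% and 25.5%. Counts of named groups below are to be read against these shares. The gene lists were chosen with earlier results of these data known, so these counts are descriptions and not independent evidence. Values are CPM of the class in 1 library, and fold changes are on the log2 scale with their standard error. Sequencing from the 3' end does not allow levels to be compared between genes.

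Genes of the NF-kB pathway and of survival were higher in members almost without exception. All 20 listed genes were higher than in type 1 cells, with a median log2 fold change of 2.33, and 18 of 20 were higher than in type 2 cells, with a median of 1.52. The medians over all genes tested were -0.02 and -0.05. Nfkbie, an inhibitor of NF-kB, and Tnfaip2 did not pass against type 2 cells, at 0.18 (edgeR adjusted p = 0.20) and 0.40 (adjusted p = 0.071).

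The promoters of these genes were searched in RefSeq sequence (build GRCm38.p6), 250 bases before to 50 after the start, for the kappa B letters GGGNNTTTCC on either strand, the other strand reading GGAAANNCCC. The letters stood in the window of 4 of 18 matched genes of the list (22.2%), against 512 of all 27025 genes (1.89%). They are shown with 10 flanking bases, the letters in capitals, each on the strand of its gene, because Nfkb2, Rel and Nfkbia encode parts of the pathway itself. Bcl2l1 encodes the survival factor BCL-XL, and Tnfrsf9 the costimulatory receptor 4-1BB, the single match among 9 costimulatory genes. The 2 Nfkb2 windows belong to different starts.
Nfkb2, chr19:46304716-46304745, plus strand: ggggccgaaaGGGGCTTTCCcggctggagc
Nfkb2, chr19:46305695-46305724, plus strand: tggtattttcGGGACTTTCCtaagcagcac
Rel, chr11:23771041-23771070, minus strand: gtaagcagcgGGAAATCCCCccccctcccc
Nfkbia, chr12:55492657-55492686, minus strand: tgactggcttGGAAATTCCCcgcgcctgac
Bcl2l1, chr2:152830916-152830945, minus strand: tacgcctctcGGAAAAACCCgggagtggtc
Tnfrsf9, chr4:150927946-150927975, plus strand: cagagcagctGGGGATTTCCcaggaggccc
A match is a run of letters and not a shown binding site. The letters also stood in the windows of 3 of 10 matched chemokine genes (30%), 2 of 11 cytokine genes (18.2%), 1 of 15 inhibitory genes (6.67%), 1 of 23 other mature genes (4.35%) and none of 17 migration genes, so they were not particular to the NF-kB list.

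Relb (ENSMUSG00000002983, chr7:19606217-19629438, minus strand) encodes the non-canonical NF-kB subunit that dendritic cell maturation depends on. It was at 526, 573, 728, 684, 567 and 652 CPM in members, 42.2 to 97.1 in type 1 cells and 70.7 to 131 in type 2 cells. No library of either class reached the lowest value of members, and the log2 fold changes were 3.49 ± 0.16 (edgeR adjusted p = 1.5e-11) and 2.80 ± 0.15 (adjusted p = 1.3e-10). Nfkb2, its partner subunit, was at 124, 238, 211, 254, 249 and 222 CPM in members, and at 20.8 to 65 and 35.9 to 103 in the other classes. It was lowest in the control library in all 3 classes. Birc2, encoding the ubiquitin ligase cIAP1, was at 292, 338, 530, 334, 415 and 463 CPM against no more than 56.4 elsewhere. Bcl2l14, a Bcl-2 family gene, separated the classes unequally. It was at 223 to 626 CPM in members, 90.9 to 253 in type 1 cells and 0 to 6.05 in type 2 cells. Stat4, a transducer of interleukin-12 signals, was at 1141 to 1532 CPM in members and no higher than 198 in either class.

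Chemokines were a mixed group. Of 13 tested, 6 were higher and 2 lower than in type 1 cells, and 4 were higher and 5 lower than in type 2 cells. Of the 6, Ccl24 and Cxcl10 no longer passed without marked doublets or without 1 of several libraries. Ccl22, a ligand of CCR4 on regulatory and helper T cells, was at 1496, 1853, 1118, 1445, 871 and 1016 CPM. The other classes stayed at or below 108 and 56.3 CPM without overlap. The log2 fold changes were 5.28 ± 0.46 (edgeR adjusted p = 3.5e-08) and 5.98 ± 0.48 (adjusted p = 1.7e-08). Ccl5, an attractant of T cells, was at 1801 to 2542 CPM in members and no higher than 121 in the other classes, with 6.25 ± 0.39 (edgeR adjusted p = 7.1e-10) and 5.27 ± 0.37 (adjusted p = 3.5e-09). Cxcl16, which binds CXCR6 on T cells, was at 485 to 671 CPM and also higher than in both classes, by 1.71 and 2.21.

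Ccl17, the second CCR4 ligand (ENSMUSG00000031780, chr8:94810453-94812036, plus strand, on the same chromosome as Ccl22), was shared with the other classes. It was at 1022, 1295, 784, 792, 495 and 533 CPM in members. Type 1 cells held 346, 381, 176, 771, 4.72 and 7.21 CPM, and type 2 cells 1300.1, 387, 67.3, 351, 110 and 125 CPM. The ranges overlapped, and the control type 2 cells were above every library of members. It passed against type 1 (2.35 ± 0.57, edgeR adjusted p = 0.0018) and type 2 cells (1.80 ± 0.55, adjusted p = 0.0097), but not when the library block was dropped. Ccl4 and the receptor Ccr2, which draws cells into inflamed tissue, were lower in members than in both classes. Ccr2 differed by -1.89 and -3.54.

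Costimulatory genes were mostly higher, 11 of 12 against type 1 cells and 8 of 12 against type 2 cells, with 1 lower in each. Cd40, the receptor for CD40 ligand on helper T cells, was at 247, 227, 240, 220, 292 and 187 CPM. It was at 22.0 to 110 CPM in type 1 and 49.1 to 119 CPM in type 2 cells, both below every library of members. Cd80 was at 647, 730, 831, 839, 610 and 943 CPM and also without overlap, with 2.87 ± 0.16 (edgeR adjusted p = 1.5e-10) against type 1 and 1.52 ± 0.15 (adjusted p = 2.0e-07) against type 2 cells. Cd86, the other ligand of CD28, was at 817 to 1314 CPM in members and 739 to 1085 CPM in type 2 cells. It passed against type 1 cells (1.1 ± 0.10, edgeR adjusted p = 5.1e-08) and not against type 2 cells (0.19 ± 0.10, adjusted p = 0.10). Cd48, which binds CD244, was the 1 gene lower in both, by -1.02 and -0.96.

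Tnfsf4, Tnfrsf9 and Tnfrsf4, of the tumor necrosis factor ligand and receptor families, were near 0 in both other classes. Tnfsf4, encoding OX40 ligand, was at 58.7, 89.7, 49.2, 99.4, 106 and 27.6 CPM in members and no higher than 4.79 CPM in a library of the other classes. Type 1 cells held 2 Tnfsf4 UMIs in all against 264 in members, a ratio of 245 with an exact counting interval of 67.3 to 2038. Tnfrsf9, whose promoter letters are shown above, was at 307 to 409 CPM against no more than 13.2. The log2 fold changes of Tnfrsf9 were 6.47 ± 0.32 (edgeR adjusted p = 4.9e-11) and 5.71 ± 0.30 (adjusted p = 9.4e-11). Its receptor relative Tnfrsf4, encoding OX40, was higher by 6.65 and 6.66. Cd70, the ligand of CD27, was sparse at 7.35 to 37.2 CPM and not tested.

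**Figure D2:**
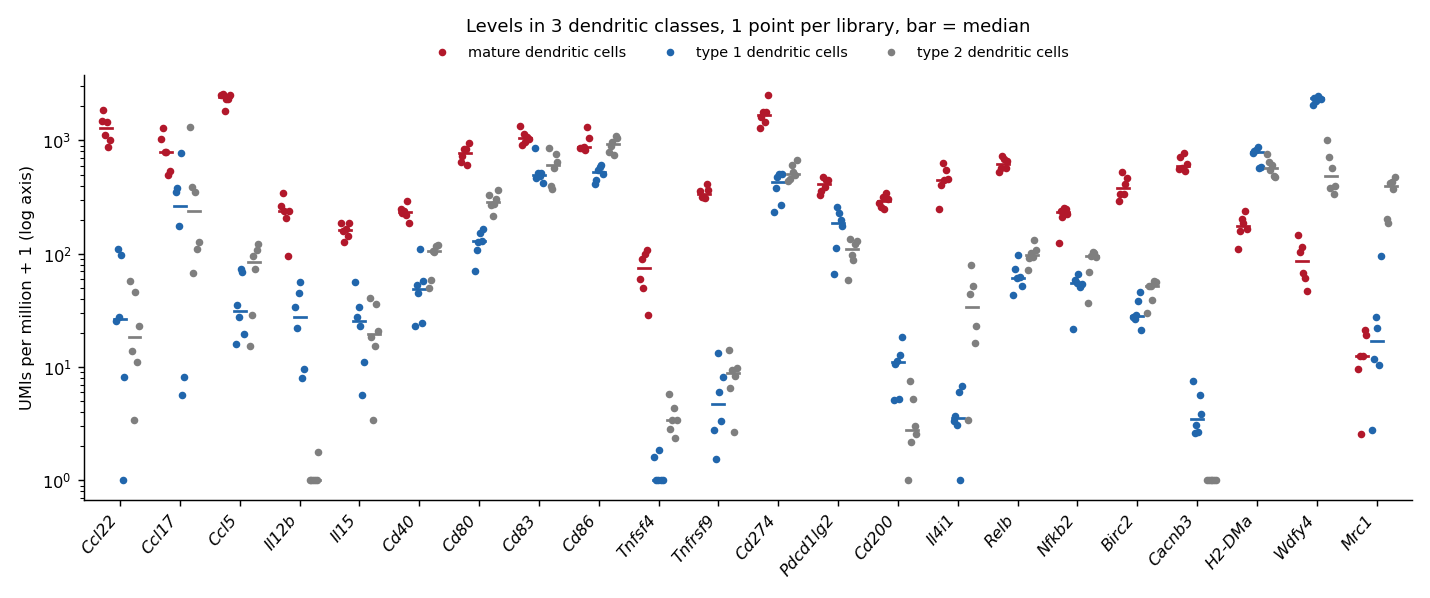
Levels of 22 genes in members, type 1 and type 2 dendritic cells, as CPM plus 1 on a log axis. Each point is 1 library and each bar the median over 6 libraries. Cacnb3 and Cd200 separate members from both other classes, Ccl17 and Cd86 overlap, and Wdfy4 is lowest in members.

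Cytokine genes that act on T cells followed the same direction, 8 of 9 higher and 1 lower against type 1 cells, and 5 higher and 1 lower against type 2 cells. Il12b (ENSMUSG00000004296, chr11:44400063-44414033, plus strand), the p40 chain of interleukin-12, was at 264, 345, 236, 207, 94.5 and 239 CPM. Type 1 cells held 7.07 to 55.7 CPM and type 2 cells 1 UMI in all against 894 in members, a ratio of 1635 with an exact counting interval of 293 to 64670. Members and type 1 cells did not overlap, with 3.27 ± 0.27 (edgeR adjusted p = 1.7e-08). Il15 was at 127 to 186 CPM and its presenting receptor chain Il15ra at 164 to 305 CPM, both above every library of the other classes. Il2ra, encoding CD25, was at 388, 218, 186, 160, 220 and 208 CPM against no more than 21.6. Il18 was the 1 lower gene, by -2.73 and -2.88.

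Inhibitory and regulatory genes were split. Of 18 tested, 10 were higher and 6 lower than in type 1 cells, and 8 were higher and 7 lower than in type 2 cells. Cd274, which encodes PD-L1, the target of the antibody (ENSMUSG00000016496, chr19:29367455-29388095, plus strand), was at 1294, 1612, 1794, 1460.4, 1764 and 2528 CPM. Type 1 cells held 232 to 506 and type 2 cells 437 to 672 CPM, so that every library of members lay above both. The log2 fold changes were 2.37 ± 0.13 (edgeR adjusted p = 1.1e-10) and 1.84 ± 0.12 (adjusted p = 2.4e-09). Pdcd1lg2, encoding PD-L2, was at 326, 356, 479, 383, 450 and 446 CPM, with a highest value elsewhere of 257. It was higher by 1.54 ± 0.19 (edgeR adjusted p = 2.8e-06) and 2.12 ± 0.20 (adjusted p = 1.1e-07).

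Cd200, a ligand that restrains myeloid cells, was at 248 to 344 CPM in members and no higher than 17.3 in the others. Il4i1, an amino acid oxidase that lowers T cell activity, was at 245, 400, 628, 444, 553 and 454 CPM against at most 79.3. Socs2, a suppressor of cytokine signaling, was at 345 to 699 CPM against at most 30.2. Aldh1a2, which makes retinoic acid, was higher by 1.20 and 4.05, with the highest member value at 136 CPM in 2DG and the lowest at 37.2 in 2DG with anti-PD-L1. The lower genes included Havcr2, encoding TIM-3, at 5.16 to 36.2 CPM against 130 to 376 in the other classes. They also included Tgfbr2, Cd200r1 and Tgfb1. Ido1 and Il10 were too low to test.

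Migration and cytoskeleton genes were higher in 15 of 18 against type 1 and in 18 of 18 against type 2 cells, with none lower. Samsn1, an adaptor of immune cells, was at 1580 to 2308 CPM against no more than 332. Tbc1d4, a regulator of vesicle traffic, was at 2142, 2432, 2610, 2807, 2904 and 2440 CPM against no more than 287. Marcksl1, an actin-binding protein, was higher by 4.38 and 3.8, and the tetraspanin Cd63 by 6.24 and 5.89. Adam8, Adam19 and Arhgap22 did not pass against type 1 cells.

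Other genes known from mature dendritic cells were higher in 22 of 23 against type 1 and 22 of 23 against type 2 cells. Cacnb3 (ENSMUSG00000003352, chr15:98630840-98644529, plus strand) was at 563, 714, 566, 768, 541 and 623 CPM. Type 2 cells held 0 UMIs against 2363 in members, at least 1441-fold lower with a floor of 3 counts over the class, and type 1 cells 1.62 to 6.53 CPM. Fabp5, a fatty acid carrier, was at 2124 CPM in the control and 3958 to 6790 CPM in the others, against no more than 978 in type 2 and 46.4 in type 1 cells. Serpinb6b, a protease inhibitor, was at 607 to 829 CPM in members, 68.4 to 265 in type 1 cells and 0 to 7.39 in type 2 cells. Apol7c, an apolipoprotein L gene, had 273 UMIs in members and 1 in each other class. Cd82 was the exception, lower than in type 1 cells by -0.72.

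Among the 10 genes with the largest differences from type 1 cells, several had no UMI in type 1 cells. Tmem150c had 669 UMIs against 0, at least 415-fold higher, Dscaml1, an adhesion molecule, 682 against 0, at least 423-fold, and Fabp4, a lipid carrier, 449 against 0, at least 278-fold. The lowest included Tlr3, the sensor of double-stranded RNA, with 2 UMIs against 1337. Ly6d and Plce1 had 0 UMIs against 267 and 272, at least 47.9-fold and 48.8-fold lower. Against type 2 cells, Adcy6, an adenylate cyclase, had 827 UMIs against 0, at least 504-fold higher. The lowest included Ctnnd2, an adhesion-linked catenin, with 1 UMI against 2556, a ratio of 1397 with a counting interval of 251 to 55207. Cd7 and the lectin genes Cd209d, Clec10a and Clec4b1 were also among them.

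**Figure D3:**
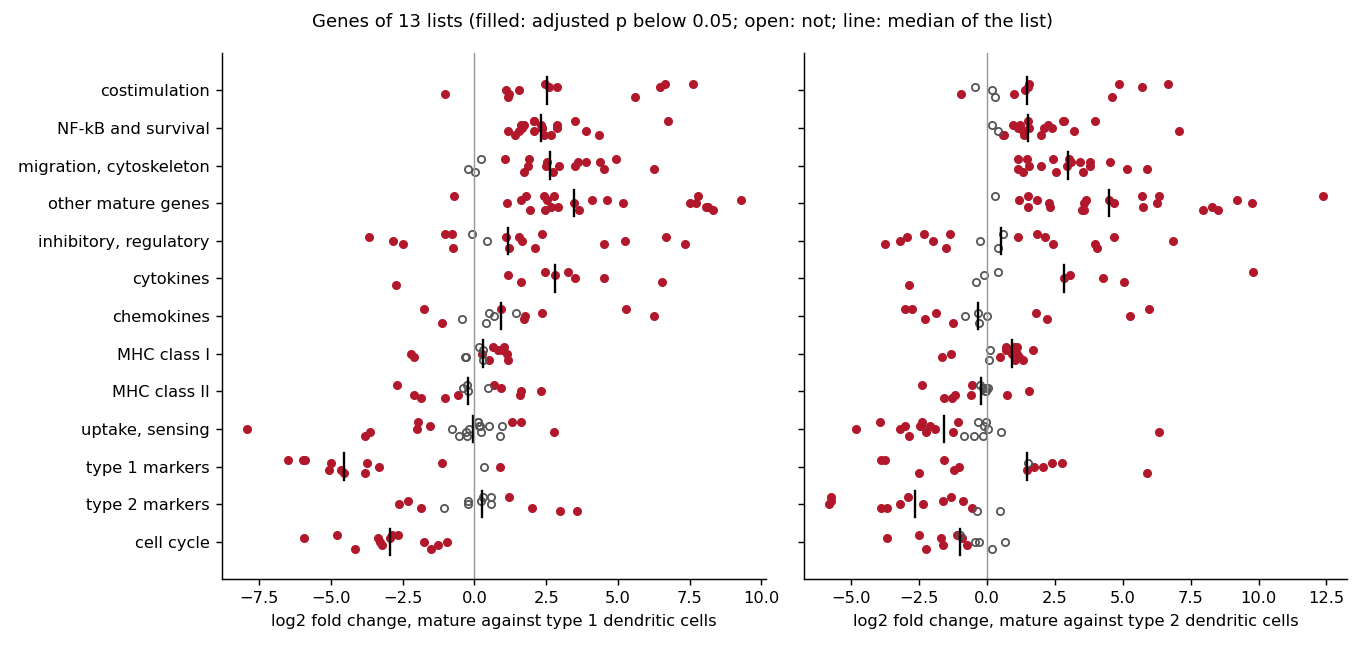
Log2 fold changes of members against type 1 and type 2 dendritic cells for 13 gene lists. Each point is 1 gene, filled where the edgeR adjusted p is below 0.05, and the line is the list's median. The medians of the NF-kB, migration and other mature lists lie above 0 in both comparisons, and the MHC class II list lies around it, with medians of -0.24 and -0.20.

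Antigen presentation genes did not move as 1 block. Of 14 MHC class II genes, 5 were higher and 5 lower than in type 1 cells, and 2 were higher and 6 lower than in type 2 cells. H2-Aa, the alpha chain of I-A, was at 2238, 3165, 4958, 3241, 4447 and 3974 CPM and did not pass (-0.25 ± 0.15, edgeR adjusted p = 0.15, and -0.24 ± 0.15, adjusted p = 0.16). The genes lower in both comparisons included those that act in peptide loading or drive class II. H2-DMb1, a chain of the peptide-loading molecule, was at 53.5 to 80.2 CPM against 360 to 589 in type 1 and 246 to 466 in type 2 cells, by -2.70 ± 0.10 (edgeR adjusted p = 1.6e-12) and -2.39 ± 0.10 (adjusted p = 8.9e-12). Ciita, the master activator of class II, was at 65.6, 146, 175, 189, 235 and 274 CPM against 299 or more. Cd74, the invariant chain, was lower by -0.58 in both. Of 15 class I genes, 8 were higher and 2 lower than in type 1 cells and 11 were higher and 2 lower than in type 2 cells. B2m and H2-K1, the class I light and heavy chains, were higher by 1.15 and 1.04 against type 1 cells, while the loading chaperones Calr and Pdia3 were lower by -2.09 and -2.21.

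Genes of uptake and sensing were higher in 3 and lower in 6 of 22 against type 1 cells, and higher in 1 and lower in 13 against type 2 cells. The gene higher in both was Ly75, encoding the uptake receptor DEC-205. It was at 602 to 1054 CPM in members, 105 to 227 in type 1 cells and 8.39 to 27.0 in type 2 cells. Mrc1, the mannose receptor, was at 1.59 to 20 CPM in members and 187 to 472 in type 2 cells. Myd88, the adaptor of most toll-like receptors, was lower by -1.56 and -2.09.

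Most markers of a resting type were lower in members than in that type. Of 13 type 1 markers, 11 were lower and 1 higher than in type 1 cells, with a median log2 fold change of -4.55, and 6 were higher and 6 lower than in type 2 cells. Of 14 type 2 markers, 12 were lower and none higher than in type 2 cells, with a median of -2.64, and 4 were higher and 3 lower than in type 1 cells. Irf8, the factor that specifies type 1 cells, was at 673, 941, 796, 935, 842 and 680 CPM in members, between 1830 or more in type 1 and 227 or less in type 2 cells. Batf3, its partner and the 1 type 1 marker higher than in type 1 cells, was higher than in both, by 0.90 and 1.72. Irf4, which serves type 2 cells, was at 32.8 to 75.6 CPM. It was higher than in type 1 cells by 3.56 ± 0.42 (edgeR adjusted p = 1.4e-06) and did not pass against type 2 cells (-0.38 ± 0.30, adjusted p = 0.28). Wdfy4, which type 1 cells need for cross-presentation, was at 145, 103, 113, 67.1, 60.1 and 45.9 CPM against 2054 or more in type 1 and 335 or more in type 2 cells. Clec10a was lower by -2.31 and -5.73. Xcr1 and Cd209a, which chose the other classes, were at 0 to 3.8 and 0 to 2.9 CPM.

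Cell cycle genes were lower in all 13 tested against type 1 cells, with a median of -2.94, and in 8 of 13 against type 2 cells, with a median of -0.99. Mki67 was at 9.19 to 30.1 CPM in members, 105 to 213 in type 1 and 31.0 to 86.3 in type 2 cells. Immediate early and heat shock genes that tissue dissociation induces were also lower, 11 of 19 against type 1 and 19 of 19 against type 2 cells, with 4 higher in the first. Fos was at 419, 142, 119, 164, 561 and 134 CPM in members.

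Because 2 of the treatments inhibit glycosylation, enzymes of glycan synthesis were listed. Of 18 tested, 11 were higher and 4 lower than in type 1 cells, and 7 were higher and 8 lower than in type 2 cells. Fut8, which adds core fucose, was nearly level between libraries at 148, 141, 132, 133, 126 and 134 CPM. The other classes stayed at or below 91.2 CPM, and the log2 fold changes were 0.98 ± 0.12 (edgeR adjusted p = 1.7e-06) and 1.37 ± 0.12 (adjusted p = 5.3e-08). Gmds, the first enzyme of GDP-fucose synthesis from GDP-mannose, went the other way at 8.63, 8.97, 4.76, 12.9, 5.73 and 11 CPM. No library of the other classes was below 102 CPM, and the log2 fold changes were -4.04 ± 0.18 (edgeR adjusted p = 1.7e-11) and -3.82 ± 0.18 (adjusted p = 4.4e-11). The sialyltransferase genes St3gal3 and St8sia4 were higher than in both classes, St3gal3 by 2.46 and 3.27.

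Interferon-stimulated genes were higher in 11 and lower in 2 of 20 against type 1 cells, and higher in 6 and lower in 9 of 20 against type 2 cells. Isg15, a ubiquitin-like protein, was at 233, 224, 332, 125, 367 and 443 CPM, higher by 2.42 and 0.64. Iigp1, an immunity-related GTPase, was lower by -2.12 and -1.14, the latter not passing without the anti-PD-L1 or without the 2FF with anti-PD-L1 library.

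UMIs of stimulatory and inhibitory genes were found in the same members. Cd274 had a UMI in 354 of 363 members, Cd274 with Cd80 in 302 (83.2%) and Cd274 with Pdcd1lg2 in 278 (76.6%). In the T cell gate, Cd274 was in 36.2 to 44.2%, Cd80 in 14.9 to 22.5% and Pdcd1lg2 in 14.8 to 23.6% of cells, at lower depth. Cd80 had a UMI in 309 members, 85.3% of those with Cd274 and 77.8% of the 9 without. Ccl22 was found in 316 and Ccl17 in 196 members, both in 190 (52.3%) and neither in 41. Of the members with Ccl22, 60.1% also had Ccl17, against 12.8% of those without. Il12b was found in 54. These shares depend on depth, since a deeper cell has more chances to show either gene.

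Ccl17 divided the members, with a UMI in 78.6, 60.8, 39.7, 57.1, 45.9 and 37.3% of them. In the T cell gate it was in 0.13 to 0.57% of cells. Members with Ccl17 were deeper in every library, with a median of 9293 to 11859 UMIs against 7904.5 to 8620. Over 6 libraries, 47 of 4084 genes tested (1.15%) were higher in members with Ccl17 and 28 (0.686%) lower, by edgeR adjusted p, and 5.02% were higher and 3.89% lower in every library. These fell to 12 and 6 without the 2DG library, and the lower ones to 17, 16, 15 and 9 without control, 2FF, 2DG with anti-PD-L1 or 2FF with anti-PD-L1. The higher ones came to 31 without control and 23 without 2FF with anti-PD-L1. Ccl22 was at 1643, 2471, 1627, 2149.9, 1386 and 1598 CPM with Ccl17 and at 776, 543, 689.8, 336, 315 and 541 CPM without, which did not overlap (1.82 ± 0.19, edgeR adjusted p = 0.00027). Aldh1a2 was at 124.6, 190.5, 69.4, 92.9, 27.6 and 85.8 CPM with and 10.2, 20, 17.5, 23.3, 47.6 and 20 CPM without, higher in 5 of 6 libraries (2.04 ± 0.38, edgeR adjusted p = 0.014), and did not pass without the 2DG library.

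Lower in members with Ccl17 was Bach2, a transcriptional repressor of lymphocytes, at 37.4, 37.7, 13.9, 59.1, 33.1 and 49.0 CPM against 71.5, 124, 67.2, 259, 107 and 194 CPM. The libraries did not overlap (-1.80 ± 0.22, edgeR adjusted p = 0.0010). Cd200 was at 146 to 251 CPM with Ccl17 and 352 to 459 CPM without (-0.97 ± 0.15, edgeR adjusted p = 0.0053). Both kept their call without any single library and without the library block, as Ccl22 did. Of 13 class II genes, 2 were lower, H2-Eb1 by -0.53 and H2-Aa by -0.51, each in 6 of 6 libraries. Neither passed when the control, the 2DG or either combined library was left out.

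Many genes that differed between members with and without Il12b also differed between type 1 and type 2 cells. The control, 2DG, 2FF and anti-PD-L1 libraries held 10, 15, 10 and 12 of them, and the 2 combined groups, with 4 and 3, were not tested. Members with Il12b were deeper, with medians of 12422 to 14794.5 UMIs against 8089.5 to 9689. In the T cell gate Il12b had a UMI in 0 to 0.09% of cells. Of 4293 genes tested, 126 (2.94%) were higher and 83 (1.93%) lower by edgeR adjusted p, and 13.2% were higher and 13.4% lower in all 4 libraries. These fell to 52 and 42 without the 2DG library and to 73 and 51 without 2FF. Of the 126 higher genes, 46 (36.5%) were over 2-fold higher in type 1 than in type 2 cells of the same libraries and 1 the reverse. Of the 83 lower genes, 45 (54.2%) were over 2-fold higher in type 2 cells and none in type 1 cells. Over all genes tested these shares were 4.12% for type 1 and 7.48% for type 2. This measure was chosen after the values had been seen and is given as a description.

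Bcl2l14 was at 679, 828, 1094 and 1528 CPM with Il12b and 133, 216, 116 and 389.6 CPM without (2.36 ± 0.20, edgeR adjusted p = 6.3e-05). Irf8 was at 1186, 1221, 1137 and 1267 CPM against 491, 848, 699 and 848 CPM (0.79 ± 0.15, edgeR adjusted p = 0.0064). Neither overlapped. Cd81, a tetraspanin, was at 132 to 255 CPM with Il12b and 14.3 to 58.5 CPM without, and Serpinb6b at 1126 to 1484 and 533 to 724 CPM. Cd40 was higher by 0.85 ± 0.19 (edgeR adjusted p = 0.018) and did not pass without the 2DG or without the anti-PD-L1 library. Of the 13 costimulatory genes tested here, 1 other passed, and it was lower. Tnfrsf9 was at 114 to 231 CPM with Il12b and 342 to 400 CPM without (-1.01 ± 0.21, edgeR adjusted p = 0.011), with no overlap, and did not pass without the 2FF library.

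Lower with Il12b was Klf12, a repressor of transcription, with 2 UMIs in members with Il12b and 268 in those without. Isg15 was at 79.1, 10.4, 85.3 and 18.6 CPM with Il12b against 288, 295, 402 and 153 CPM without (-2.63 ± 0.34, edgeR adjusted p = 0.00064). Gpr183, an oxysterol receptor that positions type 2 dendritic cells, was at 37.3 to 234 CPM against 412 to 695 CPM. Fabp5 was at 1133 to 2111 CPM against 2476 to 6939 CPM. Zeb2, which type 2 cells hold at higher levels than members, was lower by -1.49. Ciita, which both other classes hold at higher levels than members, was lower by -1.81. No library overlapped for Klf12, Isg15, Gpr183 or Fabp5.

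**Figure D4:**
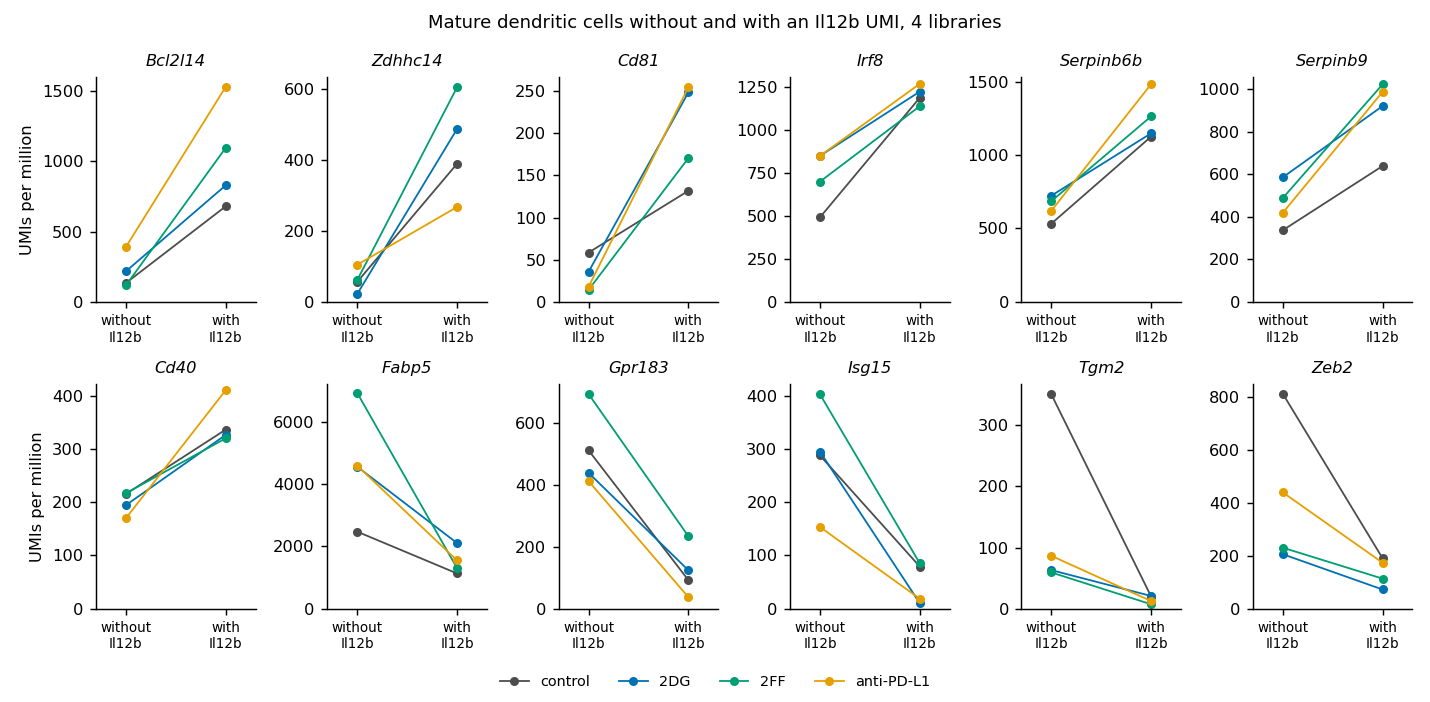
CPM of 12 genes in members without and with an Il12b UMI, on a linear axis. Each line joins the 2 values of 1 of 4 libraries. Bcl2l14, Cd81 and Irf8 are higher in the members with Il12b in each library, and Isg15, Gpr183 and Fabp5 are lower.

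Between treatments each value is 1 library, so ratios are given with no test. Among genes that reached 50 UMIs when the pair of libraries was summed, the log2 ratio of CPM plus 10 was past 1 in either direction for 210 of 3983 genes for 2DG against control (1.21% higher, 4.07% lower). It was past 1 for 269 of 3718 for 2FF (2.18 and 5.06%) and for 232 of 4055 for anti-PD-L1 (1.87 and 3.85%). The 3 ratios share the control library. Adding 2DG or 2FF to anti-PD-L1 gave 151 of 3525 (1.56 and 2.72%) and 108 of 3894 (1.49 and 1.28%). Adding anti-PD-L1 to 2DG or to 2FF gave 181 of 3455 (2.52 and 2.72%) and 106 of 3558 (1.97 and 1.01%). Without marked doublets, the share of higher genes among those past 2-fold went from 30.1 to 40.8% for 2FF and from 32.8 to 43.0% for anti-PD-L1 against control. It went from 48.1 to 37.6% for adding anti-PD-L1 to 2DG and from 66.0 to 48.7% for adding it to 2FF.

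The control members carried the highest levels of several genes of macrophages and inflammation. Spp1, encoding osteopontin, was at 697, 28.2, 6.35, 10.3, 11.5 and 14.7 CPM. The neutrophil-attracting chemokine Cxcl2 was at 1123, 39.7, 114, 227, 152 and 283 CPM. The control stood apart from the other 5 libraries in both. The 404 Spp1 UMIs of the control came from 15 of 56 members, up to 100 from 1 cell. Without the 8 control members marked as doublets, 13 Spp1 UMIs remained (26.9 CPM). The 10 macrophage markers, some used in the choice, summed to 1910, 223, 114, 588, 816 and 272 CPM in members, with 1, 3, 3, 2, 1 and 1 of them at 0 and Spp1 giving the most UMIs in the control. Because this sum holds Spp1 itself and genes limited by the choice, its high control value partly restates Spp1. Of the neutrophil markers, 2 genes could be compared, with median log2 ratios of -4.40, -0.68 and -1.26 for 2DG, 2FF and anti-PD-L1 against control. The part of macrophage or neutrophil RNA in the ratios, those of Cxcl2 included, was not tested.

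F13a1, a coagulation factor of macrophages, was likewise among the 3 lowest of all 3 treatments against control, with 145 control UMIs and 8 without the marked doublets. In 2DG with anti-PD-L1, Lyz2, the lysozyme of myeloid cells, was the highest named gene against 2DG at a log2 ratio of 4.58, and 2 of its 209 UMIs remained without marked doublets (6.69 CPM). The 2DG library then held 8 (10.6 CPM), so that the direction turned.

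Most MHC class II genes were lower in the control than in each single treatment. Of 13 genes, 11, 12 and 11 were above it in 2DG, 2FF and anti-PD-L1, with median log2 ratios of 0.45, 0.84 and 0.37 beside medians over all genes of -0.02, 0.01 and 0.03. Past 2-fold were 3, 5 and 2 of them, and none was past it downward. Without marked doublets, which were 14.3% of the control members, 9, 12 and 10 were above it, with medians of 0.25, 0.70 and 0.20, and 0, 2 and 2 were past 2-fold. The macrophage and dissociation markers went the other way, with sums highest in the control among these 4 libraries, and their part was not tested. The order of Ciita, 65.6 CPM in the control to 274 in 2FF with anti-PD-L1, is given above. Its exact 95% Poisson intervals stand in the plot of 12 genes by library.

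Most NF-kB and survival genes were also above the control in each single treatment. Of 20, 17, 18 and 16 were above control, with medians of 0.25, 0.33 and 0.20. In the anti-PD-L1 library 1 gene was past 2-fold. Over all genes, 1931 of 3983, 1878 of 3718 and 2123 of 4055 were above control. The tilt was not particular to this list. Of the other mature genes, 17 of 21, 17 of 21 and 19 of 22 were above control, with medians of 0.22, 0.28 and 0.40. Of 18 migration genes, 11, 12 and 13 were above it. These values include the marked doublets. Costimulatory genes had medians of -0.04, -0.10 and -0.11 with 1 of 12 past 2-fold, in 2FF. Cd274 ranged from 1294 CPM in the control to 2528 in 2FF with anti-PD-L1, and Pdcd1lg2 from 326 to 479. Ccl22 and Ccl17 were lowest in 2DG with anti-PD-L1, at 871 and 495 CPM.

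Most interferon-stimulated genes were above the anti-PD-L1 library in both combined groups. Of 11, 10 were above it in each, with medians of 0.48 for 2DG with anti-PD-L1 and 0.69 for 2FF with anti-PD-L1, and 3 and 4 past 2-fold. Over all genes, 1640 of 3525 and 1874 of 3894 were above it, with medians of -0.03 and -0.02. Without marked doublets, 8 of 10 and 10 of 11 were above it, with medians of 0.34 and 0.92 and 2 and 4 past 2-fold. In 2DG with anti-PD-L1 the summed macrophage markers (816 against 588 CPM) and dissociation genes (6775 against 5479 CPM) were also above anti-PD-L1 alone. Lyz2 gave 598 CPM of that macrophage sum, and 2 of its 209 UMIs remained without marked doublets. In 2FF with anti-PD-L1 the dissociation sum was also above anti-PD-L1 alone, and the macrophage sum was below it. The part of these genes was not tested in either group. Both ratios share the anti-PD-L1 library, which itself had a median of -0.03 against control. Against 2DG alone, 7 of 11 were above in 2DG with anti-PD-L1, with a median of 0.04 and none past 2-fold, and against 2FF alone 10 of 11 were above in 2FF with anti-PD-L1, with a median of 0.41 and 2 past 2-fold. Cxcl10, a ligand of CXCR3 on T cells, was at 6.90, 24.3, 44.4, 37.4, 206 and 112 CPM. Its 72 UMIs in 2DG with anti-PD-L1 came from 7 members and fell to 28 without marked doublets. Ifitm1, an interferon-induced membrane protein, was at 1062 CPM there against 226 with anti-PD-L1 alone, and 341 of 371 UMIs remained without marked doublets. Cd81 and Adam19 were among the 3 lowest named genes of the same comparison, at log2 ratios of -2.95 and -2.40.

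Genes of dissociation were past 2-fold lower in 8 of 18 in each single treatment against control, with medians of -0.98, -0.89 and -0.81. The list summed to 7402, 4950.1, 4891, 5479, 6775 and 6421 CPM in members. In 2DG and 2FF, the eosinophil-attracting chemokine Ccl24 was the highest named gene against control, from 79 UMIs in 6 members and 54 in 9. In anti-PD-L1 it was Efna5, an ephrin, from 150 UMIs in 10 members. The steadiest listed genes across libraries were Tmem123 and Fut8, whose highest and lowest libraries differed by 0.2 on the log2 scale, beside 5.4 for Spp1.

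**Figure D5:**
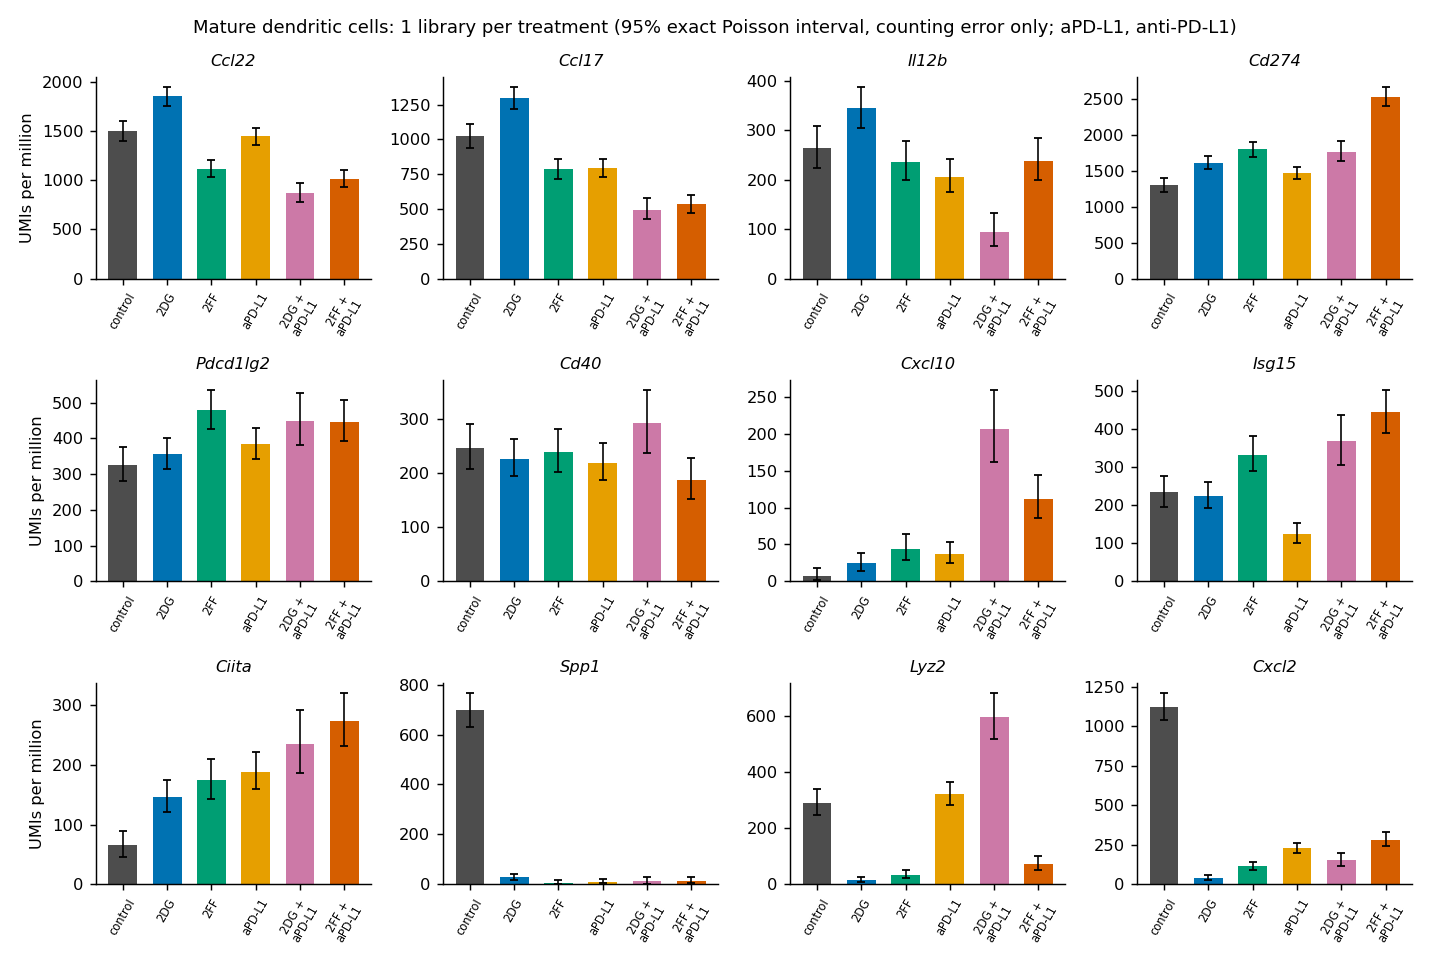
CPM of 12 genes in the members of each library, 1 bar per library with its exact 95% Poisson interval, which covers counting error only. Spp1 and Cxcl2 are highest in the control, Ciita is lowest there, and Cd274 is highest in 2FF with anti-PD-L1.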

How the data were processed

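The authors aligned reads of 10x Genomics Chromium 3' v3.1 libraries to mm10 with Cell Ranger and deposited, per library, the filtered matrix of UMI counts (32285 genes). The labels name version 3.1.0, and the matrix header names 7.0.0. Cells with at least 250 genes and no more than 5% mitochondrial UMIs were kept. Counts were not batch corrected. Members and gene lists were chosen with earlier results of these data known. Of the listed symbols, 6 were not found in the files (Cd58, Clec7a, Cxx1b, Mx1, Mx2 and Gfus, the last listed also by its older symbol Tsta3, which was found).

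UMIs were summed per library and class with at least 10 cells and tested with edgeR 4.0.16 in R 4.3.3 (quasi-likelihood, TMM, filterByExpr, library as block, Benjamini-Hochberg adjusted p below 0.05). Genes used to choose either class were left out of the tests. The test was tried on simulated counts, where it recovered 38.8% of 2-fold changes in the Il12b split. In the other comparisons it recovered 75.6 to 80.4% of 2-fold changes. All 4-fold changes were recovered in each comparison. DESeq2 1.42.0 was an alternative. Ratios between treatments used CPM plus 10 and genes with 50 or more UMIs in the pair. Doublets were scored by 30 nearest neighbors among simulated doublets, marked at 0.8% per 1000 cells, kept in the main results and removed in an alternative. Named genes were list members, the 10 highest and lowest that passed with 1 sign in every library, and the 3 highest and lowest of each treatment ratio with UMIs in at least 5 members, leaving out genes whose level in members was under 20% of that in other cells. The treatment genes also left out mitochondrial, ribosomal, immunoglobulin, T cell receptor and hemoglobin genes. Intervals are exact at 95% and cover counting error only. Python 3.11.15, NumPy 2.4.6, SciPy 1.17.1, pandas 2.3.3, scikit-learn 1.9.0 and matplotlib 3.10.9 were used.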

Additional observations from a re-analysis of the deposited data

Results flagged for a closer look

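Adding anti-PD-L1 moved the share of members among all cells in opposite directions in 2 settings. It rose by 0.258 percentage points from control to anti-PD-L1 and changed by -0.551 percentage points from 2DG to 2DG with anti-PD-L1. Adding it to 2FF gave 0.653% after 0.737%. Without cells rich in S100a8 and S100a9, the control and anti-PD-L1 shares were 0.892% and 0.885%, so that the rise was no longer seen. The intervals of control and anti-PD-L1 overlapped. Each setting is 1 pair of mice, and the difference was not tested.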

How the results depend on the processing

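Of the named genes, Lyz2 in 2DG with anti-PD-L1 against 2DG was no longer higher without marked doublets, where it fell under the minimum of 50 UMIs. Single genes among all those called turned direction. Of the genes higher against type 1 cells, 19 turned direction after thinning and 3 without marked doublets, and 1 lower gene did after thinning. Against type 2 cells, 4 higher and 3 lower genes did after thinning. Thinned to 3000 UMIs per cell, 1199 genes were higher and 1207 lower against type 1 cells, 1197 and 1225 against type 2 cells, and 25 and 17 in the Ccl17 split. Thinned shares of members were 0.331% in control, 0.680% in 2DG and 0.607% in anti-PD-L1, and genes past 2-fold numbered 79 for 2DG, 102 for 2FF and 97 for anti-PD-L1 against control. They numbered 77 and 48 for adding 2DG or 2FF to anti-PD-L1, and 69 and 35 for adding anti-PD-L1 to 2DG or to 2FF. With at least 100 UMIs per gene the same 7 counts, in the same order, were 102, 128, 115, 67, 46, 95 and 48. Without marked doublets, 124 and 152 genes were past 2-fold for 2DG and 2FF. With CPM plus 1, 169 were past 2-fold for 2FF with anti-PD-L1 against anti-PD-L1. With no filter on low counts the Ccl17 split gave 160 higher and 76 lower and the Il12b split 254 lower. Without the library block, which pairs the classes of 1 library, the Ccl17 split gave 13 and 9 and the Il12b split 65 and 45. DESeq2 gave 53 lower genes in the Il12b split. Leaving out cells with 20 or more S100a8 and S100a9 UMIs, an alternative added after seeing the data, gave a control share of 0.892% and an anti-PD-L1 share of 0.885%, turning their order. Leaving out each library gave 2102 to 2341 higher and 2272 to 2536 lower genes against type 1 cells, 1969 to 2195 and 2191 to 2431 against type 2 cells, 12 to 41 and 6 to 29 in the Ccl17 split, and 52 to 109 and 42 to 97 in the Il12b split. The cause of these changes was not tested beyond the fewer libraries, genes or UMIs that each setting leaves. The Il12b split could not be fitted on thinned cells, since 1 library alone held enough cells on both sides. Between treatments, no paired analysis was possible because each had 1 library. At 37 to 77 members per library, counting error limits low genes.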
